A study of Arabidopsis thaliana with 6 samples.

Results

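The genes described here are 45 nuclear genes of Arabidopsis thaliana that encode light-harvesting proteins and nucleus-encoded subunits of both photosystems, out of 32833 genes in the deposited count table. They were picked as a gene class by identifier, by a rule that uses no measured value, at a time when earlier results of these data were known. They comprise 6 LHCA genes of the photosystem I antenna (LHCI), 15 LHCB genes of the photosystem II antenna (here all grouped under LHCII, although LHCB4 to LHCB6 form the minor antenna), 12 PSA genes of photosystem I (PSI) and 12 PSB genes of photosystem II (PSII). Messenger RNA had been sequenced from whole 7-day-old seedlings, grown without treatment on 1/2 MS medium with 1% sucrose, in 2 genotypes with 3 libraries each. The control was the wild type in the Col-0 accession, and the other genotype was gbpl3, which is mutant in GBPL3, a relative of guanylate-binding proteins described in the title of the series as part of the nuclear basket. The labels do not name the kind of mutation. They give the mutant genotype with a running number for each library, which was read here as a replicate number, so whether the 3 mutant libraries share 1 line cannot be told from them. Separate cultures are not mentioned for libraries of the same genotype, so the spread behind the p-values below may be technical.

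Light-harvesting proteins bind chlorophyll and carotenoids in the thylakoid membrane and pass excitation energy to the reaction centres of photosystem II, which oxidises water, and photosystem I, which reduces ferredoxin. Their reaction-centre cores are encoded in the plastid, whereas the antenna proteins and the peripheral subunits are encoded in the nucleus, often by several copies, and imported into the chloroplast. In seedlings these nuclear genes are among the most abundant transcripts of green tissue, and they respond together to light, to the circadian clock, to sugar and to signals from the plastid.

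Total counts per library ran from 9530643 to 12911891. GBPL3 (AT5G46070) stood at 68.9, 67.9 and 66.0 CPM (counts relative to library size, with edgeR's TMM factors) in the wild-type libraries and at 14.8, 18.8 and 15.6 CPM in the mutant ones, so that the transcript was lower in each mutant library (log2 fold change -2.04, SE 0.12, adjusted p = 5.11e-09). Values below are listed in that order, Col-0 replicates 1 to 3 and then gbpl3 replicates 1 to 3. Means carry the SD with n = 3 per genotype. Genes were tested by edgeR's quasi-likelihood method, p-values were adjusted by Benjamini-Hochberg over the 20677 genes that passed a filter on low counts, a gene is called changed under 0.05, and a positive log2 fold change means higher in gbpl3.

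Transcripts of the antenna and of both photosystems were more abundant in gbpl3 seedlings. All 45 genes passed the filter, 22 of them rose, and no gene fell. The 22 make up 48.9% of the genes, whereas 6.06% of all tested genes were called higher, 4.69% were called lower and 10.7% were called in either direction. Among other genes of like abundance, 15.3% of the 59 with at least 1000 CPM were called higher. The share was 11.9% of the 1680 with at least 100 CPM. None of the 45 was called lower by DESeq2 either, and the 38 of them with an unadjusted p under 0.05 in edgeR were higher in gbpl3. In either direction, 4890 of the 20677 tested genes had such a p, as had 30 of the 59 other genes with at least 1000 CPM. The number of calls depended on the method. With limma on log2(FPKM + 1), where input, scaling and filter differed as well as the test, 1 of the 45 genes was called higher. This was 2.22%, beside 2.18% of all genes tested by limma. The log2 fold changes ran from 0.02 to 0.84 with a median of 0.34, beside a median of -0.00 over all tested genes, and all 45 were above 0. The median was 0.12 over the 59 other genes with at least 1000 CPM and -0.03 over the 1680 with at least 100 CPM. In 34 of the 45 genes, or 75.6%, every gbpl3 library lay above every Col-0 library. This was so for 14.5% of all tested genes, for 32.2% of the 59 and for 20.9% of the 1680. The opposite order, found in 13.6% of all tested genes, occurred in 0 of the 45, and in the other 11 the genotypes overlapped.

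As these transcripts are abundant, the differences amounted to a visible part of the messenger RNA. The 45 genes together took 9.98%, 12.6% and 11.5% of all counts in Col-0 and 14.6%, 13.2% and 15.6% in gbpl3, a mean of 11.3 ± 1.3% against 14.5 ± 1.19%. The LHCII genes took the largest part, with 5.23%, 6.96% and 6.11% in Col-0 and 8.14%, 7.25% and 8.62% in gbpl3. The mean LHCII share was 1.31-fold higher in the mutant, the LHCI share 1.29-fold (1.5 ± 0.191% against 1.93 ± 0.164%), the PSII share 1.22-fold (1.93 ± 0.130% against 2.35 ± 0.167%) and the PSI share 1.19-fold (1.82 ± 0.127% against 2.16 ± 0.167%). For each of the 4 complexes the lowest mutant library lay above the highest wild-type library, though for LHCII the gap was from 6.96% to 7.25%. With 3 libraries against 3 an exact permutation test cannot give a p below 0.1, and no test was made of these sums. In whole seedlings, more cells of a kind and more RNA per cell cannot be told apart.

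**Figure D1:**
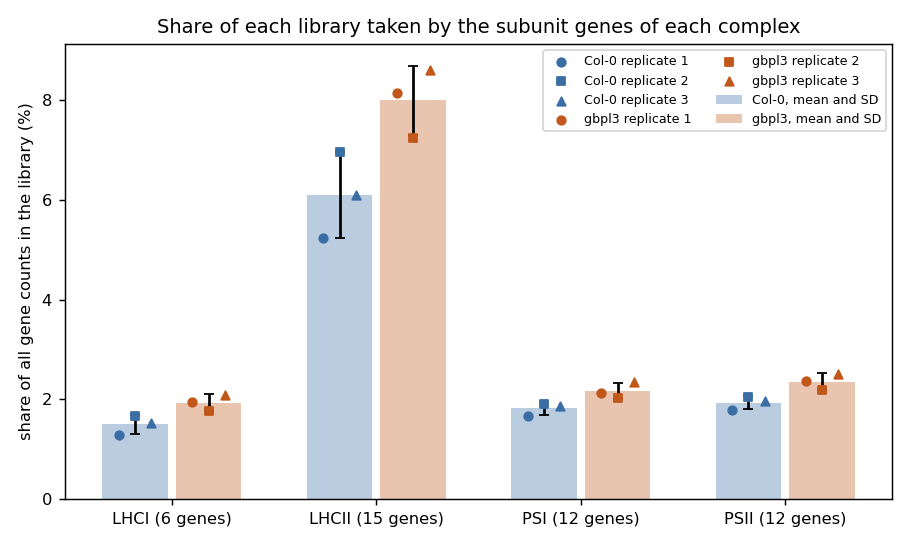
Share of all gene counts in each library (%) taken by the LHCI, LHCII, PSI and PSII genes, with 1 point per library for 3 Col-0 and 3 gbpl3 libraries. In each complex the mutant libraries lie above the wild-type libraries, and LHCII takes 5.23% to 6.96% in Col-0 and 7.25% to 8.62% in gbpl3.

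The main trimeric antenna of photosystem II is built from LHCB1, LHCB2 and LHCB3 proteins. Of its 9 genes, 7 rose in gbpl3. LHCB1 is encoded by 5 copies in 2 clusters, LHCB1.1 to LHCB1.3 on chromosome 1 (between 10472280 and 10479114, TAIR10.1) and LHCB1.4 and LHCB1.5 side by side on chromosome 2 (between 14522524 and 14525918), each with a single exon. LHCB2.1 and LHCB2.2 lie on the minus strand of chromosome 2 (1822990 to 1824480 and 1799234 to 1800472) and LHCB2.3 on chromosome 3 (10255906 to 10257489). LHCB4, a protein of the minor antenna that links the trimers to the core, has 3 copies, of which LHCB4.1 and LHCB4.2 are abundant. The 6 largest log2 fold changes of the 45 genes belong to copies of LHCB1, LHCB2 and LHCB4. The 120 bases before the annotated gene start are therefore shown for the abundant copies of these proteins, called or not, read 5′ to 3′ on the strand of the gene from the RefSeq TAIR10.1 assembly.
LHCB1.1 (AT1G29920), chr1:10475970-10476089, minus strand: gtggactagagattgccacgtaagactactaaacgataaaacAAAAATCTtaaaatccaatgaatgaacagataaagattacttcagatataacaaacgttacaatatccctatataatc
LHCB1.2 (AT1G29910), chr1:10473503-10473622, minus strand: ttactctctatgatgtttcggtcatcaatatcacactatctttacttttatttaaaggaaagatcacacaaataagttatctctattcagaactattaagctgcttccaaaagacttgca
LHCB1.3 (AT1G29930), chr1:10477765-10477884, plus strand: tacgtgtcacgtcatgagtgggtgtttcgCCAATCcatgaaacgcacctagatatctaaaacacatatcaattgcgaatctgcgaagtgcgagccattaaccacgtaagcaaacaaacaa
LHCB1.4 (AT2G34430), chr2:14524487-14524606, plus strand: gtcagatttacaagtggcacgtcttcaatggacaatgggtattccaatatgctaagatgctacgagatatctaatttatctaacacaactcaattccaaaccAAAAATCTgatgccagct
LHCB1.5 (AT2G34420), chr2:14523569-14523688, minus strand: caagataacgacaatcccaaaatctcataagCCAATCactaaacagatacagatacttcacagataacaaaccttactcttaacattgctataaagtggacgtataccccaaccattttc
LHCB2.1 (AT2G05100), chr2:1824481-1824600, minus strand: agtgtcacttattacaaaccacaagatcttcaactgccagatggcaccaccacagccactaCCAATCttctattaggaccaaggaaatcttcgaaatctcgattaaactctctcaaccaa
LHCB2.2 (AT2G05070), chr2:1800473-1800592, minus strand: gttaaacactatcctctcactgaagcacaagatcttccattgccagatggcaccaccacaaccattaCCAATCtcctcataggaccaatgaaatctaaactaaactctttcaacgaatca
LHCB2.3 (AT3G27690), chr3:10255786-10255905, plus strand: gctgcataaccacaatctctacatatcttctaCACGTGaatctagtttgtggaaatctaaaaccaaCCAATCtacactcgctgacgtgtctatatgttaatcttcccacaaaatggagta
LHCB4.1 (AT5G01530), chr5:208746-208865, plus strand: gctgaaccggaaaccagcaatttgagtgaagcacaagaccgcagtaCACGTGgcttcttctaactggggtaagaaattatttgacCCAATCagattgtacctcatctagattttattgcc
LHCB4.2 (AT3G08940), chr3:2717437-2717556, plus strand: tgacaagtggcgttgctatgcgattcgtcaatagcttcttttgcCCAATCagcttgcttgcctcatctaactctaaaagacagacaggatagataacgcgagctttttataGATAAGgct
Capitals mark matches, on either strand, to CCAATC (the motif associated with GLK factors, which activate photosynthesis genes), to the G-box CACGTG (bound by HY5 and by phytochrome-interacting factors), to the I-box GATAAG, to the CCA1 site AAAAATCT and to the evening element core AAATATCT. A match describes the letters and does not show that a factor binds there. No match to CCAATC was found in the windows of LHCB1.1, LHCB1.2 and LHCB1.4.

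In the first cluster the levels were high and the relative differences small. LHCB1.3, the most abundant of the 45 transcripts, stood at 15559, 19737 and 17731 CPM in Col-0 and 22989.5, 20786 and 24538 CPM in gbpl3. It rose (log2 fold change of 0.37 with SE 0.11 and adjusted p = 0.0467), a call that ended without Col-0 replicate 1 or 3 or gbpl3 replicate 1 or 3 (adjusted p = 0.106 to 0.191). LHCB1.2 stood at 5226, 6673 and 5679 CPM in Col-0 and 6917, 6849.6 and 7941 CPM in gbpl3, and LHCB1.1 at 3655, 4056 and 3652 CPM in Col-0 and 4189, 4019.8 and 4703 CPM in gbpl3. For LHCB1.2 all mutant libraries were above the wild type but the gene did not pass the test (log2 fold change of 0.30 with SE 0.11 and adjusted p = 0.0964). For LHCB1.1 the genotypes overlapped (log2 fold change of 0.18 with SE 0.10 and adjusted p = 0.298).

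The second cluster differed more. LHCB1.5 stood at 6626, 11569.7 and 9184 CPM in Col-0 and 15448, 12403 and 16789 CPM in gbpl3, and LHCB1.4 at 3185, 5713 and 4473 CPM in Col-0 and 7603, 5996 and 8578 CPM in gbpl3. Both rose without overlap between genotypes, LHCB1.5 from 9127 ± 2472 CPM in Col-0 to 14879.8 ± 2248 CPM in gbpl3 (log2 fold change of 0.71 with SE 0.16 and adjusted p = 0.0079) and LHCB1.4 from 4457 ± 1265 CPM in Col-0 to 7392 ± 1303 CPM in gbpl3 (log2 fold change of 0.73 with SE 0.17 and adjusted p = 0.00819). Replicate 1 was the lowest wild-type library for both genes, and the smallest gap between genotypes was from Col-0 replicate 2 to gbpl3 replicate 2. DESeq2 did not call LHCB1.4 (adjusted p = 0.081) or LHCB1.5 (0.0648). The LHCB1.4 call ended without gbpl3 replicate 3 (adjusted p = 0.0631), and the LHCB1.5 call ended without Col-0 replicate 3 (0.0501) or gbpl3 replicate 3 (0.0537).

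LHCB2 proteins carry a threonine that is phosphorylated when antenna moves between the photosystems. LHCB2.1 stood at 1458, 2196 and 1899.7 CPM in Col-0 and 3104, 2461 and 3031 CPM in gbpl3, and LHCB2.2 at 1212, 1696 and 1458 CPM in Col-0 and 2313, 1961 and 2362 CPM in gbpl3. LHCB2.3 stood at 406, 574 and 442 CPM in Col-0 and 944, 659 and 948 CPM in gbpl3. In all 3 genes the lowest mutant library, replicate 2, lay above the highest wild-type library, replicate 2. LHCB2.3 had the largest log2 fold change of the 45 genes (log2 fold change of 0.84 with SE 0.14 and adjusted p = 0.000937). LHCB2.2 (log2 fold change of 0.60 with SE 0.12 and adjusted p = 0.00358) and LHCB2.1 (log2 fold change of 0.63 with SE 0.13 and adjusted p = 0.00527) rose as well, and the calls of all 3 held when any single library was left out, with a highest adjusted p of 0.0445 for LHCB2.1. Together the LHCB2 genes took 0.386 ± 0.0653% of all counts in Col-0 and 0.577 ± 0.0598% in gbpl3. LHCB3 (AT5G54270), the other component of the trimers, stood at 3042, 3901 and 3335 CPM in Col-0 and 4518, 3945 and 4909.6 CPM in gbpl3 and rose (log2 fold change of 0.38 with SE 0.12 and adjusted p = 0.0417), a call that ended in the same 4 cases as that of LHCB1.3 (adjusted p = 0.0961 to 0.184).

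Of the 5 minor antenna genes, which encode monomers between the trimers and the core, 2 rose. LHCB4.2 stood at 970.4, 1448 and 1206 CPM in Col-0 and 2022, 1684 and 2167 CPM in gbpl3. It rose from 1208 ± 239 CPM in Col-0 to 1958 ± 248 CPM in gbpl3 (log2 fold change of 0.70 with SE 0.13 and adjusted p = 0.00236) and stayed called when any library was left out. LHCB5 (AT4G10340) stood at 3667, 4658 and 4174 CPM in Col-0 and 5602, 4776 and 5987 CPM in gbpl3 and also rose (log2 fold change of 0.39 with SE 0.12 and adjusted p = 0.0373), a call that again ended without Col-0 replicate 1 or 3 or gbpl3 replicate 1 or 3 (adjusted p = 0.0879 to 0.16). LHCB4.1 stood at 2789, 3581 and 3108 CPM in Col-0 and 4021, 3467 and 4351 CPM in gbpl3, so gbpl3 replicate 2 lay below Col-0 replicate 2, and it did not pass the test (log2 fold change of 0.32 with SE 0.12 and adjusted p = 0.0879). LHCB6 (AT1G15820), whose protein joins LHCB4 in binding the outer trimer, had a log2 fold change of 0.34 and an adjusted p of 0.0795, again with overlap.

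Both rare LHCB transcripts lay far below the others. LHCB4.3 (AT2G40100) stood at 5.67, 6.0 and 4.09 CPM in Col-0 and 8.9, 4.49 and 6.6 CPM in gbpl3, and LHCB7 (AT1G76570) at 9.07, 8.79 and 6.34 CPM in Col-0 and 10.7, 6.19 and 7.81 CPM in gbpl3. Neither passed the test (adjusted p = 0.526 and 0.979), and the libraries of the genotypes overlapped. Per kilobase of exon, LHCB4.3 reached 3.63 CPM in Col-0, against 14370.2 CPM for LHCB1.3.

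The photosystem I antenna is a belt of LHCA1 to LHCA4, and these 4 genes rose to like extents. LHCA1 (AT3G54890) stood at 3561, 4660.3 and 4235 CPM in Col-0 and 5521, 4828 and 6135 CPM in gbpl3, and LHCA4 (AT3G47470), which pairs with LHCA1 in the belt, at 3456, 4653 and 4153 CPM in Col-0 and 5683, 5059 and 6161 CPM in gbpl3. LHCA2 (AT3G61470) stood at 2636, 3561 and 3181 CPM in Col-0 and 4269.6, 3718 and 4694 CPM in gbpl3, and its partner LHCA3 (AT1G61520) at 2633, 3534 and 3159.7 CPM in Col-0 and 4338, 3816 and 4776 CPM in gbpl3. All 4 showed the same order of libraries, with Col-0 replicate 1 lowest and gbpl3 replicate 3 highest, and no overlap between genotypes. The log2 fold changes were 0.40 for LHCA1 (SE 0.12, adjusted p = 0.0354), 0.44 for LHCA2 (SE 0.12, adjusted p = 0.0264), 0.47 for LHCA3 (SE 0.12, adjusted p = 0.016) and 0.46 for LHCA4 (SE 0.12, adjusted p = 0.0168). Each of these calls ended when Col-0 replicate 3, gbpl3 replicate 1 or gbpl3 replicate 3 was left out, where adjusted p-values were 0.0784 to 0.16, and those of LHCA1 and LHCA2 also ended without Col-0 replicate 1 (0.0885 and 0.0655).

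LHCA5 and LHCA6 are minor antenna proteins that attach the NDH complex to photosystem I. LHCA5 (AT1G45474) stood at 102, 103 and 108 CPM in Col-0 and 106, 105 and 119 CPM in gbpl3, and LHCA6 (AT1G19150) at 58.4, 70.2 and 70.1 CPM in Col-0 and 81.3, 68.7 and 88.9 CPM in gbpl3. Both were far less abundant than the belt proteins, the genotypes overlapped, and neither passed the test (log2 fold change 0.08 with adjusted p = 0.677 for LHCA5, and 0.26 with adjusted p = 0.168 for LHCA6).

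Among the 12 PSI genes 5 rose, and in 11 all mutant libraries lay above the wild type. PSAD and PSAE form the stromal side where ferredoxin docks. PSAD2 (AT1G03130) stood at 615, 853 and 713 CPM in Col-0 and 979, 922 and 1097 CPM in gbpl3, and PSAE1 (AT4G28750) at 1467, 1707 and 1636 CPM in Col-0 and 2007, 1952 and 2309.5 CPM in gbpl3. Both rose (log2 fold change of 0.46 with SE 0.12 and adjusted p = 0.0172 for PSAD2, and log2 fold change of 0.38 with SE 0.10 and adjusted p = 0.0244 for PSAE1). Of the second copies, PSAE2 (AT2G20260) stood at 384, 447 and 437 CPM in Col-0 and 457, 448 and 580.5 CPM in gbpl3, higher in each mutant library by a narrow margin and not called (adjusted p = 0.23), and PSAD1 (AT4G02770) had a log2 fold change of 0.23 (adjusted p = 0.184).

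PSAG helps to anchor the LHCI belt, PSAH is part of the docking site for LHCII, and PSAN binds plastocyanin on the lumen side. PSAG (AT1G55670) stood at 1822, 2086 and 2145 CPM in Col-0 and 2544, 2474 and 2944 CPM in gbpl3, and PSAH2 (AT1G52230) at 687, 798 and 759 CPM in Col-0 and 981, 887 and 1078 CPM in gbpl3. PSAN (AT5G64040) stood at 1448, 1583 and 1531 CPM in Col-0 and 1909, 1737 and 2133 CPM in gbpl3. The 3 genes rose by log2 fold changes of 0.40 (SE 0.11, adjusted p = 0.0224), 0.39 (SE 0.10, adjusted p = 0.0211) and 0.34 (SE 0.10, adjusted p = 0.0408), with no overlap between genotypes.

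PSAF (AT1G31330), the plastocyanin-binding subunit and with PSAG 1 of the pair most abundant by deposited FPKM, stood at 2618, 3253 and 2971 CPM in Col-0 and 3609.7, 3069 and 3860.2 CPM in gbpl3. In PSAF gbpl3 replicate 2 lay below Col-0 replicate 2, and the gene was not called (log2 fold change of 0.25 with SE 0.11 and adjusted p = 0.179). PSAH1 (AT3G16140), the second PSAH copy, stood at 617, 734 and 705 CPM in Col-0 and 839, 765 and 931.8 CPM in gbpl3, above the wild type in each mutant library but not called (adjusted p = 0.0789). PSAK (AT1G30380), PSAL (AT4G12800) and PSAO (AT1G08380), which sit at the antenna and LHCII side of the core, had log2 fold changes of 0.30, 0.36 and 0.30 and adjusted p-values of 0.0754, 0.0565 and 0.0881. The 5 PSI calls ended when Col-0 replicate 3, gbpl3 replicate 1 or gbpl3 replicate 3 was left out, with adjusted p-values from 0.065 to 0.183. Without Col-0 replicate 1 those of PSAE1 (0.053) and PSAN (0.0716) ended too.

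Photosystem II had 4 called genes among its 12. PSBR (AT1G79040), a small subunit needed for stable binding of PSBP, stood at 2606, 3008 and 3109.7 CPM in Col-0 and 4058, 3717 and 4671 CPM in gbpl3. It rose from 2908 ± 266 CPM in Col-0 to 4149 ± 484 CPM in gbpl3 (log2 fold change of 0.51 with SE 0.11 and adjusted p = 0.00614), and the call held when any library was left out, with a highest adjusted p of 0.0403. PSBW (AT2G30570), a small membrane subunit that helps to hold PSII supercomplexes together, stood at 1489.5, 1689.5 and 1742 CPM in Col-0 and 2010.2, 1986 and 2558 CPM in gbpl3, and PSBY (AT1G67740), a small subunit beside cytochrome b559, at 930.4, 1102 and 983 CPM in Col-0 and 1466, 1180.2 and 1359.8 CPM in gbpl3. Both rose with no overlap (log2 fold change of 0.41 with SE 0.11 and adjusted p = 0.0259 for PSBW, and log2 fold change of 0.41 with SE 0.11 and adjusted p = 0.02 for PSBY). The small subunits PSBX (AT2G06520) and PSBTN (AT3G21055) did not pass the test, with a log2 fold change of 0.26 for each gene and adjusted p-values of 0.129 and 0.137, although their mutant libraries lay above the wild type.

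The oxygen-evolving proteins PSBO, PSBP and PSBQ shield the manganese cluster in the lumen, and 1 of their 5 genes rose. PSBQ2 (AT4G05180) stood at 1049, 1433 and 1286 CPM in Col-0 and 1816, 1571 and 1848 CPM in gbpl3 and rose (log2 fold change of 0.47 with SE 0.12 and adjusted p = 0.0137). PSBO1 (AT5G66570), the main PSBO copy, stood at 3270.0, 4197 and 3768 CPM in Col-0 and 4941, 4284 and 5045 CPM in gbpl3, higher in each mutant library by a narrow margin over Col-0 replicate 2 and not called (log2 fold change of 0.34 with SE 0.11 and adjusted p = 0.0572). PSBP1 (AT1G06680) was close to it, with a log2 fold change of 0.32 and adjusted p = 0.0742, and PSBO2 (AT3G50820), with 0.25 (adjusted p = 0.151), and PSBQ1 (AT4G21280), with 0.15 (adjusted p = 0.37), were further from the threshold.

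PSB27 (AT1G03600), which acts in assembly and repair of PSII, stood at 291, 355 and 316 CPM in Col-0 and 382, 348 and 442 CPM in gbpl3, with overlap between genotypes (adjusted p = 0.114). PSBS senses lumen acidity and is required for rapid dissipation of excess light. PSBS (AT1G44575) stood at 744, 708 and 689.8 CPM in Col-0 and 822, 724 and 776 CPM in gbpl3 and did not pass the test (log2 fold change of 0.12 with SE 0.10 and adjusted p = 0.518). Its smallest mutant value, in replicate 2, lay below its largest wild-type value, in replicate 1. Leaving out Col-0 replicate 3, gbpl3 replicate 1 or gbpl3 replicate 3 ended the calls of PSBQ2, PSBW and PSBY, with adjusted p-values from 0.0568 to 0.154, and leaving out Col-0 replicate 1 ended that of PSBW (0.0538).

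**Figure D2:**
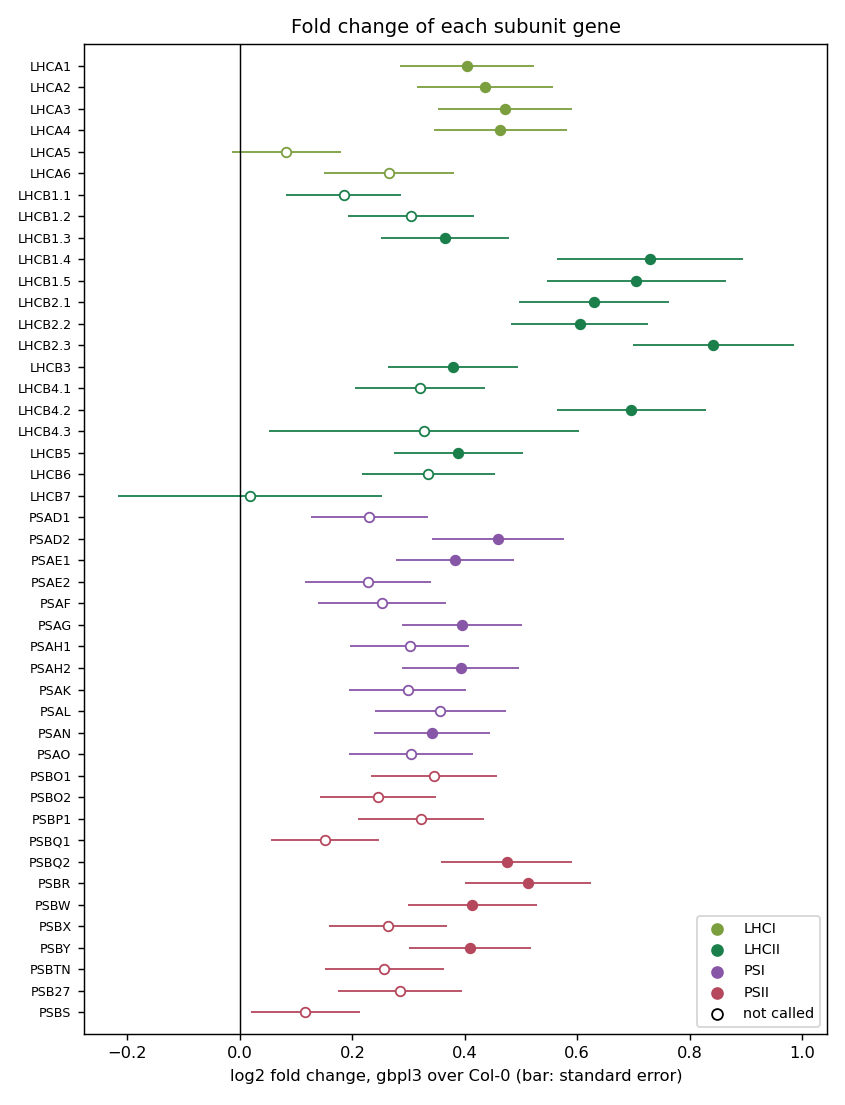
Log2 fold change of gbpl3 over Col-0 for each of the 45 genes, grouped by complex, with bars for the standard error from edgeR and marks that separate called from uncalled genes. All points lie right of 0, from 0.02 for LHCB7 to 0.84 for LHCB2.3.

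Set side by side, the complexes had medians of 0.42 (LHCI), 0.38 (LHCII), 0.32 (PSI) and 0.30 (PSII) on the log2 scale, with ranges of 0.08 to 0.47, 0.02 to 0.84, 0.23 to 0.46 and 0.12 to 0.51. The PSI genes thus lay closest together, and LHCII genes were the most spread. No test was made of the differences between complexes, whose genes share the same libraries. Within LHCII the median was 0.63 for the 3 LHCB2 genes, 0.72 for the pair of LHCB1 genes on chromosome 2, 0.30 for the 3 LHCB1 genes on chromosome 1 and 0.34 for the 5 minor antenna genes.

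The 45 genes moved together between libraries of the same genotype, so they are not independent of each other. In wild type, replicate 1 was the lowest library for 40 genes and replicate 2 the highest for 36. In the mutant, replicate 2 was the lowest for 45 and replicate 3 the highest for 40. Relative to the wild-type mean of each gene, the median over the 45 genes was -0.17, 0.14 and 0.01 on the log2 scale in Col-0 replicates 1 to 3 and 0.33, 0.20 and 0.49 in those of gbpl3. The 2 closest libraries were thus Col-0 replicate 2 and gbpl3 replicate 2, where the mutant value was the higher one in 36 genes with a median log2 ratio of 0.06. The farthest were Col-0 replicate 1 and gbpl3 replicate 3, with a median log2 ratio of 0.64.

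Which library was left out therefore moved the number of called genes. It was 29 without Col-0 replicate 2 and 28 without gbpl3 replicate 2, but 14 without replicate 1 and 6 without replicate 3 of Col-0. Leaving out replicate 1 or 3 of gbpl3 gave 7 and 5. Of the 22 calls, 5 held in all 6 of these fits, namely LHCB2.1, LHCB2.2, LHCB2.3, LHCB4.2 and PSBR. The direction did not turn in any of these fits except for LHCB7, which had log2 fold changes of -0.12 without Col-0 replicate 3 and -0.21 without gbpl3 replicate 1. The median of each complex stayed positive, at 0.31 to 0.52 for LHCI, 0.30 to 0.48 for LHCII, 0.24 to 0.40 for PSI and 0.22 to 0.38 for PSII.

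**Figure D3:**
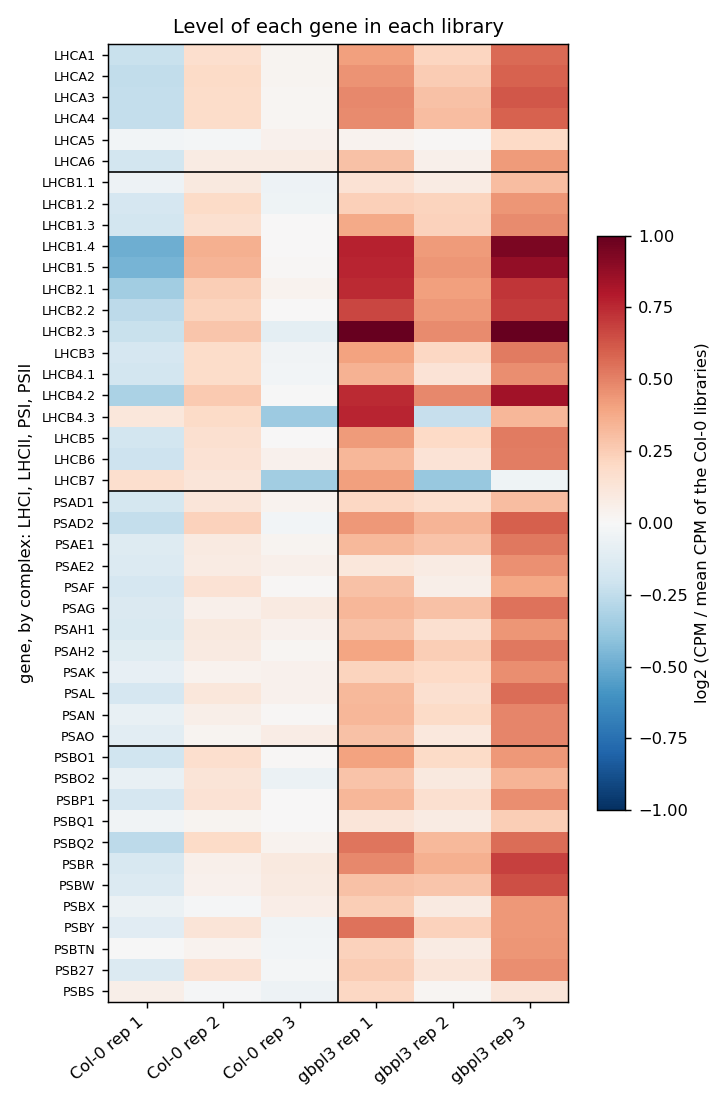
Log2 ratio of the CPM of each gene in each library to its mean in the Col-0 libraries, with genes as rows in the order LHCI, LHCII, PSI and PSII and the 6 libraries as columns, Col-0 left of the line and gbpl3 right of it. The column medians are -0.17, 0.14 and 0.01 in Col-0 and 0.33, 0.20 and 0.49 in gbpl3, and the colour scale ends at 1 in either direction.

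For 6 subunits encoded by a pair of abundant genes, the ratio between the copies did not overlap between genotypes. This measure compares genes within the same library, so it does not depend on the scaling of the libraries. How often the ratio of other gene pairs keeps the genotypes apart was not computed. PSAE1, PSAE2, PSAH1 and PSAH2 each overlap an opposite-strand gene with 20.5% to 85.8% as many counts, and their ratios may include its reads. LHCB4.1 had 2.87, 2.47 and 2.58 times the counts of LHCB4.2 in Col-0 and 1.99, 2.06 and 2.01 times in gbpl3. The ratio of PSBQ1 to PSBQ2 was 1.00, 0.765 and 0.838 in Col-0 and 0.645, 0.724 and 0.692 in gbpl3. LHCB4.2, the rarer copy of its pair, and PSBQ2, the more abundant copy in Col-0 replicates 2 and 3, thus had more weight in the mutant.

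The ratio of PSAD1 to PSAD2 was 2.56, 2.26 and 2.56 in Col-0 and 2.1, 2.16 and 2.01 in gbpl3, again with more weight on the rarer copy. The ratio of PSAE1 to PSAE2, at 3.82, 3.82 and 3.74 in Col-0 and 4.39, 4.35 and 3.98 in gbpl3, and that of PSBO1 to PSBO2, at 3.85, 4.3 and 4.4 in Col-0 and 4.55, 4.48 and 4.45 in gbpl3, had more weight on the more abundant copy. The ratio of PSAH1 to PSAH2 differed least, at 0.898, 0.920 and 0.929 in Col-0 and 0.855, 0.862 and 0.864 in gbpl3. By contrast, the ratio of LHCB2.3 to the sum of LHCB2.1 and LHCB2.2, computed after the values were seen, was 0.152, 0.148 and 0.132 in Col-0 and 0.174, 0.149 and 0.176 in gbpl3, with overlap. With 3 libraries a side the smallest exact p is 0.1, so no test was made.

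Within LHCB1, chosen for a ratio after the values were seen, the 2 copies on chromosome 2 together had 0.401, 0.567 and 0.505 times the counts of the 3 copies on chromosome 1 in Col-0 and 0.676, 0.581 and 0.682 times in gbpl3. LHCB1.3 supplied 43.4 ± 2.05% of LHCB1 counts in Col-0 and 40.3 ± 1.15% in gbpl3, LHCB1.5 supplied 22 ± 2.48% and 26.2 ± 1.25%, and LHCB1.4 supplied 10.7 ± 1.35% and 13.0 ± 0.906%. The family as a whole took 4.18 ± 0.626% of all counts in Col-0 and 5.51 ± 0.470% in gbpl3. Coding sequences of the chromosome 1 copies were 95.6% to 96.4% identical, LHCB1.4 and LHCB1.5 were 92.5% identical, and copies from different chromosomes were 87.0% to 91.1% identical. Even so, no stretch of 150 bases of an LHCB1 transcript occurred in another LHCB1 transcript. Between LHCB2.1 and LHCB2.2, which are 91.6% identical, 0.239% and 0.302% of such stretches were shared, and the other copy pairs compared here were 79.0% to 88.0% identical.

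**Figure D4:**
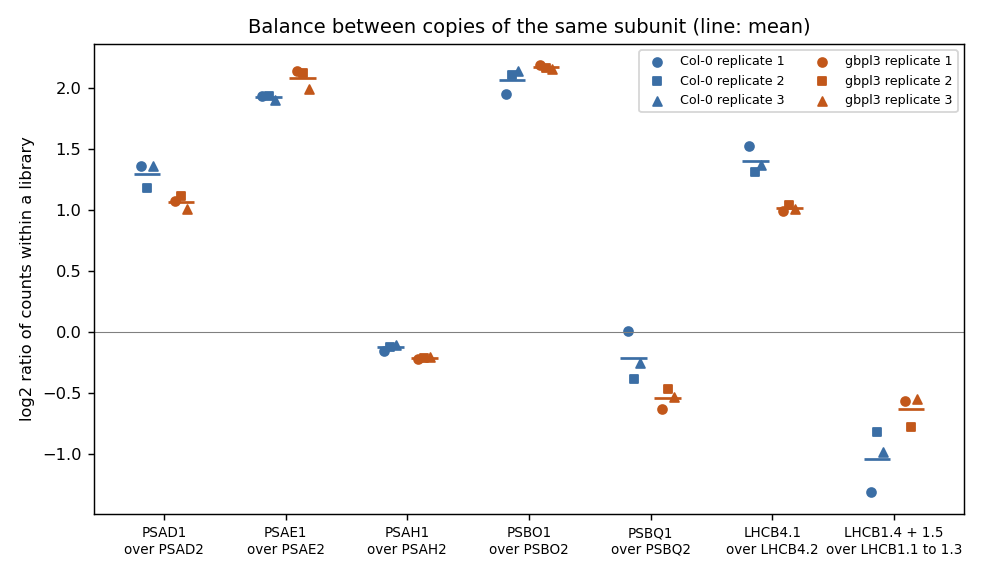
Log2 ratio of counts between copies of the same subunit within each library, for the 6 copy pairs and for LHCB1.4 with LHCB1.5 over LHCB1.1 to LHCB1.3, with 1 point per library and a line at the mean of each genotype. The genotypes do not overlap in the 7 ratios drawn, and LHCB4.1 over LHCB4.2 has the widest log2 difference of the 6 pairs, with mean ratios of 2.64 in Col-0 and 2.02 in gbpl3. The LHCB1 ratio was chosen after the values were seen. The LHCB2 ratio given in the text, in which the genotypes overlap, is not drawn.

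Some of the genes are annotated on top of another gene. The libraries were strand-specific per the labels' protocols, but the strand setting of the counting is not given in the sources used here, and reads of a gene and of its opposite-strand partner cannot then be told apart. For 8 of the 45 genes an opposite-strand gene held at least 10% as many counts. LHCB1.5 and AT2G08665, which covers its whole transcript, had nearly equal counts (96.2% as many in the partner), as had PSAG and AT1G55673 (98.6%) and PSAE1 and AT4G28755 (85.8%). The partners' log2 fold changes of 0.71, 0.40 and 0.39 were close to those of the subunit genes, 0.71, 0.40 and 0.38. The figure for LHCB6 and AT1G05207 was 50.7%, for PSAH1 and AT3G16130 49.6%, for PSAH2 and AT1G52240 39.8%, for LHCB2.3 and AT3G27700 26.0% and for PSAE2 and AT2G20270 20.5%. Over the other 37 genes, 17 were called higher and the median log2 fold change was 0.34. LHCB1.4, which overlaps no annotated gene, had by itself 0.161 ± 0.0289 times the counts of the chromosome 1 copies in Col-0 and 0.214 ± 0.0219 times in gbpl3.

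Over the 250 bases before the annotated start, the motif CCAATC occurred in 7 of 15 LHCII genes, 3 of 6 LHCI genes, 2 of 12 PSII genes and 0 of 12 PSI genes. It occurred in 26.7% of the 45 windows and in 10.2% of the 27443 windows of all nuclear protein-coding genes. In the sequences printed above, it began 91 bases before the start in LHCB1.3, 89 in LHCB1.5, 59 in LHCB2.1, 53 in LHCB2.2, 54 in LHCB2.3 and 76 in LHCB4.2, while LHCB4.1 had matches at 35 and, outside the printed stretch, at 194. Of the 7 LHCII genes with the motif 6 rose, with a median log2 fold change of 0.63, and of the 8 without it 3 rose, with a median of 0.33. LHCB1.4, which rose, had no match, and LHCB4.1, which did not pass the test, had 2. This split was noticed after the values were seen and is given as a description. The G-box occurred in 10 of the 45 windows and in 6.49% of all windows, the I-box in 9 and 12.3%, the CCA1 site in 5 and 6.69%, and the evening element core in 1 and 4.79%.

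In the neighbouring steps of photosynthesis the share of genes called higher was close to the 6.06% of all tested genes. It was 7.14% for electron transport and ATP synthase and 5.56% for Rubisco and the Calvin cycle. The share of genes whose mutant libraries all lay above the wild type was 50% and 27.8% in these lists, beside 14.5% of all tested genes. Of 14 genes for electron transport and ATP synthase, 1 rose, PGRL1A, a protein of cyclic electron flow around photosystem I. PGRL1A (AT4G22890) stood at 196, 245 and 229 CPM in Col-0 and 349, 309 and 366 CPM in gbpl3 (log2 fold change of 0.61 with SE 0.11 and adjusted p = 0.00133), and the median log2 fold change of the 14 was 0.23, with 12 above 0 and 7 whose mutant libraries all lay above the wild type. Of 18 genes of Rubisco and the Calvin cycle 1 rose, CP12-2, a regulator of the cycle (log2 fold change of 0.43 with SE 0.12 and adjusted p = 0.0323), with a median of 0.15, 16 above 0 and 5 whose mutant libraries all lay above the wild type. That call ended when Col-0 replicate 1 or 3 or gbpl3 replicate 1 or 3 was left out, with a highest adjusted p of 0.231. DESeq2 called 3 of the 14 and 2 of the 18 higher, and 1 of the 14 lower. The differences between these lists and the photosystem genes were not tested.

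Of 22 chlorophyll biosynthesis genes 1 rose and 1 fell, and the median was -0.13. In 10 of the 22 every gbpl3 library lay below every Col-0 library, an order found in 13.6% of all tested genes. In 4 of the 22 every gbpl3 library lay above, as in 14.5% of all tested genes. CAO, the oxygenase that makes the chlorophyll b bound by LHCII, rose (log2 fold change of 0.49 with SE 0.11 and adjusted p = 0.00897), and GSA1, an enzyme of an early step, fell (log2 fold change of -0.37 with SE 0.11 and adjusted p = 0.0345). Both calls ended without Col-0 replicate 3, gbpl3 replicate 1 or gbpl3 replicate 3, with a highest adjusted p of 0.075 for CAO and 0.162 for GSA1, and that of GSA1 also ended without Col-0 replicate 1. Among 21 genes for antenna targeting, kinases and assembly, 3 rose and 1 fell, with a median of 0.01. The thylakoid curvature protein CURT1B rose (log2 fold change of 0.46 with SE 0.11 and adjusted p = 0.0106), as did the LHCII kinase STN7 (log2 fold change of 0.38 with SE 0.11 and adjusted p = 0.0397) and the phosphatase TAP38 (log2 fold change of 0.41 with SE 0.13 and adjusted p = 0.0431), which remove antenna from photosystem II and return it. The assembly factor PSB28 fell (log2 fold change of -0.32 with SE 0.10 and adjusted p = 0.0497). Each of these 4 calls ended without gbpl3 replicate 1 or 3, and all but that of CURT1B also without Col-0 replicate 1, with highest adjusted p-values of 0.0799 for CURT1B, 0.166 for STN7, 0.224 for TAP38 and 0.162 for PSB28, and an opposite-strand gene held 12.2% as many counts as TAP38.

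Of 8 genes for LHC-like proteins, relatives of the antenna, 1 fell. ELIP1 (AT3G22840), an early light-induced protein, stood at 6.37, 4.11 and 3.78 CPM in Col-0 and 0.947, 0.387 and 0.558 CPM in gbpl3 (log2 fold change of -2.92 with SE 0.44 and adjusted p = 0.000328). Of 20 plastid-encoded photosystem genes 12 passed the filter on low counts, and 1, psaB, was called higher (log2 fold change of 1.03 with SE 0.29 and adjusted p = 0.0278), at a level of 3.81 ± 1.77 CPM in Col-0 and 7.83 ± 0.493 CPM in gbpl3. That call ended without Col-0 replicate 1 or 3 and without any of the gbpl3 replicates, with a highest adjusted p of 0.113. The 20 plastid genes took 0.0028% to 0.0071% of the counts, so the depth for them was low.

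Among 19 regulators of photosynthesis genes 7 rose, or 36.8%, beside 6.06% of all tested genes called higher. The median log2 fold change of the 19 was 0.05, and the list was written with earlier results of these data known. PIF4 (AT2G43010), a phytochrome-interacting factor that promotes elongation growth, stood at 64.5, 105 and 81.2 CPM in Col-0 and 149, 141 and 159.9 CPM in gbpl3 and rose (log2 fold change of 0.84 with SE 0.14 and adjusted p = 0.000598). PIF5 (AT3G59060), a close relative of PIF4, stood at 77.5, 72.2 and 78.0 CPM in Col-0 and 106, 105 and 113 CPM in gbpl3 (log2 fold change of 0.51 with SE 0.10 and adjusted p = 0.00232), and the far-red photoreceptor gene PHYA at 120.2, 155 and 154 CPM in Col-0 and 194, 217 and 203 CPM in gbpl3 (log2 fold change of 0.52 with SE 0.11 and adjusted p = 0.00548). In these 3 genes no mutant library overlapped a wild-type library, and the calls held when any library was left out.

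GLK1 (AT2G20570), a transcription factor that activates antenna and chlorophyll genes, stood at 86.4, 102 and 96.3 CPM in Col-0 and 124, 118 and 118 CPM in gbpl3 and rose (log2 fold change of 0.34 with SE 0.10 and adjusted p = 0.035). Its call ended when any library but Col-0 replicate 2 was left out, with a highest adjusted p of 0.146. GLK2 (AT5G44190), the second GLK gene, stood at 92.5, 82.7 and 84.6 CPM in Col-0 and 96.8, 84.7 and 78.7 CPM in gbpl3 and did not pass the test (log2 fold change of 0.00 with SE 0.11 and adjusted p = 0.997). GUN4, which stimulates magnesium chelatase, rose (log2 fold change of 0.40 with SE 0.11 and adjusted p = 0.0219), but its opposite-strand neighbour AT3G59410 held 118% as many counts, and the call ended without Col-0 replicate 3, gbpl3 replicate 1 or gbpl3 replicate 3 (highest adjusted p 0.149). The blue light receptor gene CRY1 rose (log2 fold change of 0.45 with SE 0.10 and adjusted p = 0.00742), a call that ended without Col-0 replicate 3 (adjusted p = 0.0595). PIF1, a repressor of chlorophyll synthesis in the dark, rose (log2 fold change of 0.54 with SE 0.15 and adjusted p = 0.0262), with a highest adjusted p of 0.183 when a library was left out, and an opposite-strand gene held 21.8% as many counts.

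The other regulators named for this comparison did not pass the test. HY5 (AT5G11260), a light-response factor that activates many photosynthesis genes, had 13.1 ± 1.3 CPM in Col-0 and 9.83 ± 1.91 CPM in gbpl3, with each mutant library below the wild type (log2 fold change of -0.42 with SE 0.19 and adjusted p = 0.179). GUN1, which acts in signalling from the plastid, was likewise lower in each mutant library (log2 fold change of -0.15 with SE 0.09 and adjusted p = 0.354). The HY5 homologue HYH (adjusted p = 0.893), PIF3 (0.538) and the morning clock genes CCA1 (0.552) and LHY (0.43) overlapped between genotypes.

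**Figure D5:**
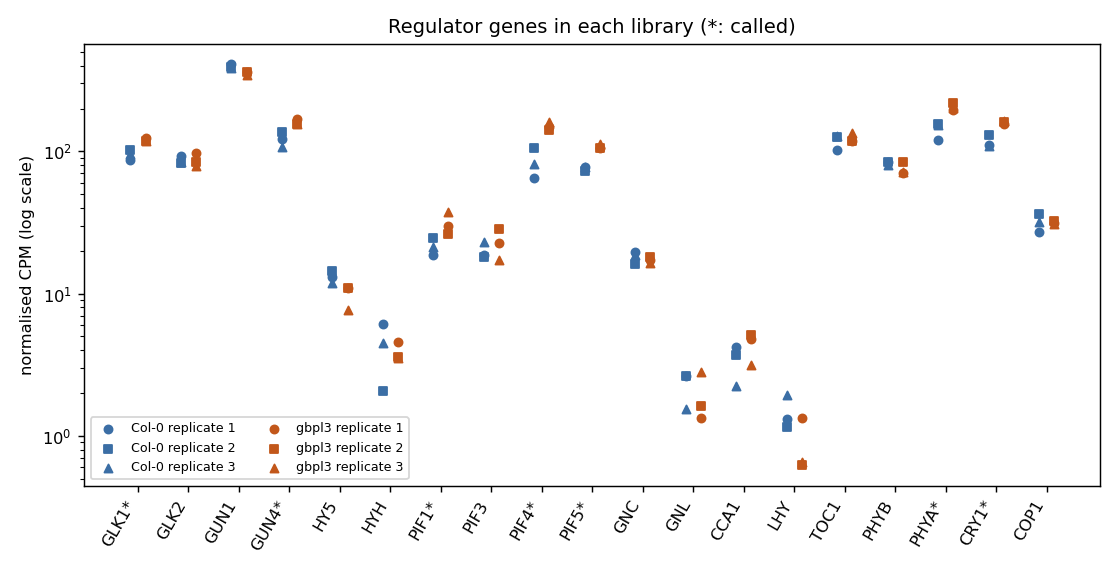
Normalised CPM on a log axis of the regulator genes in each of the 6 libraries, with 1 point per library and an asterisk at called genes. PIF4 lies at 64.5 to 105 CPM in Col-0 and 141 to 160 CPM in gbpl3, GLK1 at 86.4 to 102 and 118 to 124 CPM, and GLK2 at 82.7 to 92.5 and 78.7 to 96.8 CPM.

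Markers of cell types in the whole seedling moved in part with these genes. The summed level of 7 mesophyll genes outside the photosystems was 4902 to 5172 CPM in Col-0 and 5400 to 6556 CPM in gbpl3, and 1 of them rose, the glycolate oxidase GOX1 (log2 fold change of 0.45 with SE 0.10 and adjusted p = 0.00867), a call that ended without Col-0 replicate 3, gbpl3 replicate 1 or gbpl3 replicate 3 (highest adjusted p 0.0637). The median log2 fold change of the 7 mesophyll genes was 0.20, with 6 above 0, and in 4 of them the genotypes overlapped. In 3 of the 7, or 42.9%, every gbpl3 library lay above every Col-0 library, beside 14.5% of all tested genes. The summed level of 14 root genes was 4728 to 4950 CPM in Col-0 and 3824 to 4204 CPM in gbpl3. Most of that sum came from PYK10, a beta-glucosidase of root ER bodies (4207 ± 88.3 CPM in Col-0 and 3463 ± 97.7 CPM in gbpl3), which was not called (adjusted p = 0.0696), and the other 13 genes summed to 542 to 669 CPM in Col-0 and 472 to 668 CPM in gbpl3. In 5 of the 14 root genes every gbpl3 library lay below every Col-0 library, an order found in 13.6% of all tested genes. The opposite order, found in 14.5% of all tested genes, occurred in 0 of the 14. The median log2 fold change of the 14 was -0.07, and 7 were above 0. Of these genes 2 fell, the peroxidase RCI3 (log2 fold change of -1.30 with SE 0.14 and adjusted p = 9.49e-06) and the auxin carrier PIN2 (log2 fold change of -0.44 with SE 0.12 and adjusted p = 0.0301), the second of which ended without Col-0 replicate 3 or gbpl3 replicate 3 (highest adjusted p 0.184).

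The summed level of 8 seed storage and oil body genes was 0.262 to 2.05 CPM in Col-0 and 19.1, 93.0 and 223 CPM in the mutant libraries. Of the 4 that passed the filter 4 rose, although SESA2 overlapped between genotypes and its call ended without Col-0 replicate 3, gbpl3 replicate 2 or gbpl3 replicate 3 (highest adjusted p 0.281), and CRA1, a storage protein gene, had the largest change (log2 fold change of 7.43 with SE 0.86 and adjusted p = 1.87e-05). Replicate 3 was the highest mutant library for the seed genes and for 40 of the 45 photosystem genes, while the lowest was replicate 1 for the seed genes and replicate 2 for the photosystem genes. Phloem genes had summed levels of 300 to 384 CPM in Col-0 and 336 to 382 CPM in gbpl3, with 1 of 4 called, PP2-A1 (log2 fold change of 0.44 with SE 0.12 and adjusted p = 0.0206), a call that ended without Col-0 replicate 1 or gbpl3 replicate 3 (highest adjusted p 0.129). An opposite-strand gene held 21.9% as many counts as PP2-A1. Epidermis and guard cell genes had 375 to 404 CPM in Col-0 and 345 to 381 CPM in gbpl3, and edgeR and DESeq2 called 0 of 6, with 1 at an unadjusted p under 0.05. None of the marker genes was at 0 in all 6 libraries. The part of tissue proportions or of seed transcripts in the difference of the photosystem genes was not tested.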

How the data were processed

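Strand-specific Illumina libraries were made from seedling messenger RNA, per the labels' protocols. The authors deposited raw counts per gene and FPKM, which divide counts by gene length and library size. HISAT2 2.0.4, HTSeq 0.6.1p1 and TAIR10 are named in the submitters' processing notes. How the counting treated strand and multiply matching reads is not given in the sources used here. For 31 of the 45 genes the length behind the deposited FPKM equalled the union of exons within 0.5 bases, and for genes with several transcripts it was up to 2.38 times as long. Levels per kilobase were therefore computed from CPM and the exon union.

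Genes passed filterByExpr, libraries were scaled by TMM, and the quasi-likelihood test of edgeR 4.0.16 (R 4.3.3) was fitted on all 6 libraries without covariates. SEs are the absolute log2 fold change over the square root of the F statistic. Alternatives were RLE scaling, upper-quartile scaling, TMM without the 45 genes, DESeq2 1.42.0, other filters, a replicate block, leaving out single libraries, and limma 3.58.1 on log2(FPKM + 1) or log2(FPKM + 0.1). DESeq2 gave no adjusted p for 2465 genes, which stayed missing. The edgeR fit recovered known changes in simulated counts. Recovery of changes as small as those of the 45 genes was not tested. The simulated counts were also run with the replicate block, DESeq2 and limma, but only the edgeR result was held to a set limit. The chi-square over genes, divided by its degrees of freedom, was 5.11 to 15.0 between libraries of the same genotype, above sampling noise, and no library was a copy of another.

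The 45 genes and the 12 lists of other genes (161 genes) were chosen with earlier results of these data known. Values in every library are given for the 20 called genes with the smallest adjusted p and for the 2 most and 2 least abundant genes of each complex by FPKM. Of each list up to 4 called genes are named, and the regulators whatever their p. LHCB3, LHCB1.1, LHCB1.2 and LHCB4.1 were added after their values were seen, to complete their families. Positions, overlaps and sequences come from the RefSeq TAIR10.1 annotation, which held all 45 genes. Coding sequences of copies were aligned with Biopython 1.88, and shared stretches of 150 bases were counted on exon sequences.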

Additional observations from a re-analysis of the deposited data

How the results depend on the processing

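The number of photosystem and antenna genes called higher was 22 with RLE or upper-quartile scaling, with TMM factors computed without these genes and with a minimum of 1 CPM in 3 libraries. It was 29 with DESeq2, which shared 20 calls and did not call LHCB1.4 and LHCB1.5, and 28 with no filter on low counts. It fell to 1 with limma on log2(FPKM + 1), 1 on log2(FPKM + 0.1) and 0 on log2(FPKM + 1) with no filter, and the gene still called was LHCB2.3. Those fits called 424, 384 and 294 of all genes higher and 390, 368 and 227 lower, against 1253 and 969 in edgeR. The share of the 45 genes called higher was then 2.22%, 2.22% and 0%, beside 2.18%, 1.97% and 1.14% of all genes tested, so that the excess over all genes seen in edgeR (48.9% beside 6.06%) was not present in these fits. Leaving out 1 library at a time gave 5 to 29. No gene was called lower under any of these alternatives. The log2 fold change of LHCB7 reversed, to -0.0482 on log2(FPKM + 1), -0.0564 on log2(FPKM + 0.1), -0.0482 on log2(FPKM + 1) with no filter, -0.12 without Col-0 replicate 3 and -0.21 without gbpl3 replicate 1, and its range over the libraries left out was -0.2137 to 0.1938. No other gene of the 45 reversed. With the replicate number as a block, 9 of the 45 were called, all among the 22, and 916 genes of the whole table were higher and 618 lower. Over all tested genes, deviations from the genotype means correlated at -0.046, -0.065 and 0.036 between libraries of the same number, 1 to 3. Of the libraries only those numbered 3 correlated best with their own number. Over the 45 genes the same correlations were 0.306, -0.489 and 0.626. With 3 libraries per genotype these values cannot settle whether libraries of the same number were paired. Differences in the share of counts stayed positive when a library was left out, at 0.334 to 0.523 percentage points for LHCI, 1.47 to 2.33 for LHCII, 0.258 to 0.422 for PSI and 0.340 to 0.507 for PSII. Among the other lists, the regulators called higher numbered 7 in edgeR and in DESeq2, 5 with the block and 1 to 2 with limma, and in the other lists the counts moved by at most 4 genes. Calls near the threshold depended on single libraries. The cause of these differences was not tested.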
